A study of Mus musculus with 18 samples.

Results

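Fatty acid uptake and oxidation in mouse myofibers, the multinucleated cells of skeletal muscle, was followed through 10 genes: Lpl, Cd36, Fabp3, Cpt1b, Cpt2, Acadvl, Acadl, Acadm, Hadha and Hadhb. They were 10 of the 35527 gene names on the array and were chosen by name, and every probe carrying one of these names was kept, which gave 14 of the 55681 probe names of the array. Lpl, Fabp3, Cpt1b and Cpt2 had 2 probes each, and the other genes had 1. The arrays held RNA of the nuclear or of the cytoplasmic fraction of fibers from extensor digitorum longus (EDL, a fast muscle), soleus (a slow, oxidative muscle) and tibialis anterior (TA, a fast muscle), with 3 arrays in each of the 6 groups and 18 in all. All fibers were wild-type and untreated, from 9 female CD1 mice aged 3 months. Fibers were freed with collagenase and picked intact by hand, and each sample was 1 pool of 5 to 10 fibers. In both fractions, EDL and soleus pools 1, 2 and 3 came from mice 3 and 4, mice 5 and 6, and mice 7 and 8. TA nuclei 1, 2 and 3 came from mice 1, 2 and 3, whereas TA cytoplasm 1, 2 and 3 came from mice 1 and 5, mice 2 and 5, and mouse 9, so the first and second share mouse 5. The cytoplasmic arrays of EDL and soleus lay on 1 slide together with TA cytoplasm 1, and the nuclear arrays of EDL and soleus lay on another, so fraction and slide cannot be told apart in these muscles. Soleus and EDL were compared within a slide. TA nuclei and TA cytoplasm 2 shared a further slide, and TA cytoplasm 3 lay on another.

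These 10 genes cover the route of a fatty acid from the capillary to acetyl-CoA. Lipoprotein lipase (Lpl) frees fatty acids from circulating triglyceride, the membrane protein Cd36 helps them into the cell, and Fabp3 carries them through the cytosol. Cpt1b and Cpt2 pass them into the mitochondrion as carnitine esters, the acyl-CoA dehydrogenases Acadvl, Acadl and Acadm open the beta-oxidation cycle on very long, long and medium chains, and Hadha and Hadhb form the trifunctional protein that completes it on long chains. Slow, oxidative fibers are known for using fatty acids more than fast fibers do.

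A level is the log2 of the scanner intensity after quantile normalization of all 18 arrays, and a difference of 1 is a 2-fold change. Levels of different probes are not comparable with each other, and a difference between fractions is relative to the other RNAs on the arrays, not a share of a gene's transcripts. Differences are given ± the standard error of limma's fit, and p-values are limma's, adjusted by Benjamini and Hochberg over all probes tested in that comparison, with 0.05 as the threshold. No spot of the 14 probes was saturated. They were well above background on all 18 arrays, apart from 1 Cpt2 probe (A_55_P2074174) and the Acadl probe, which missed this on 1 TA cytoplasm array each. Replicate arrays correlated at 0.981 to 0.988 in nuclei and 0.915 to 0.967 in cytoplasm, and the median SD of the 14 probes within a group was 0.07 in nuclei and 0.24 in cytoplasm. As a check of the labels, 6 of 7 slow fiber genes passed the threshold higher in soleus than in EDL in both fractions. Among them was Myh7 (slow myosin heavy chain, 4.73 ± 0.44 in cytoplasm), while Myh4 (the fastest myosin) differed by −5.03 ± 0.74. The fast fiber list was less uniform than Myh4. Of its 9 genes, 3 were called lower and 1 higher in soleus cytoplasm, with a median of −0.43. In nuclei 1 was called lower and 0 higher. The part of fiber type in the differences below was not tested. Of 4 RNAs known to stay in the nucleus, 4, 4 and 3 passed the threshold higher in nuclei of EDL, soleus and TA.

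**Figure D1:**
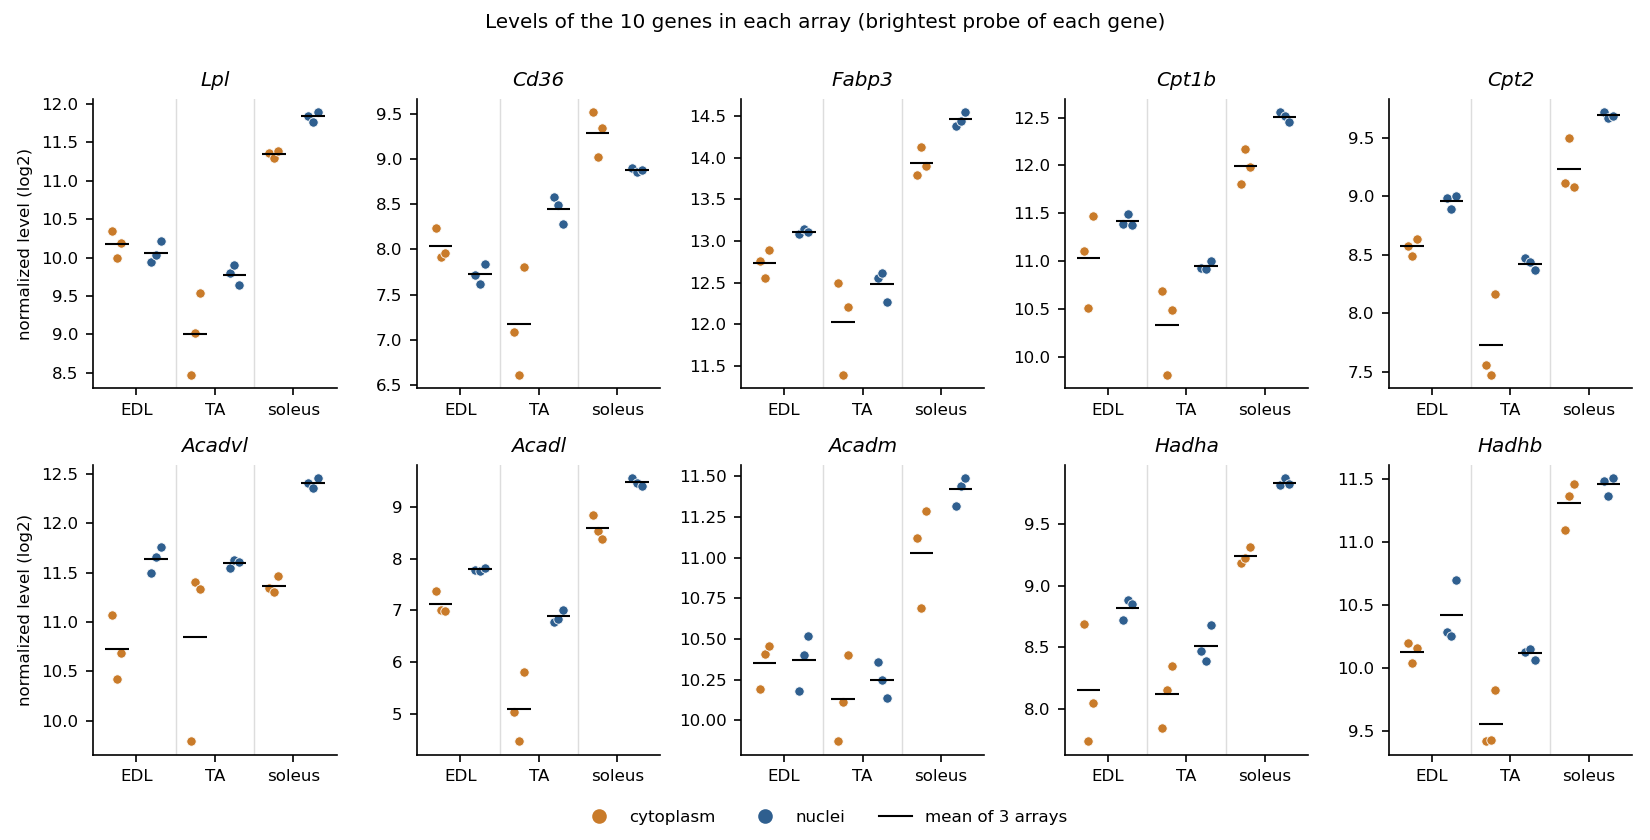
Normalized level (log2) of the brightest probe of each of the 10 genes on every array, by muscle and fraction. Points are arrays, lines are means of 3 arrays, and each panel has its own axis. In every panel the soleus arrays lie above the EDL arrays of the same fraction, and the points of the nuclear arrays lie closer together than those of the cytoplasmic arrays in most groups.

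All 14 probes were higher in soleus than in EDL, with no overlap between the arrays of the muscles in either fraction. In cytoplasm 8 probes of 6 genes passed the threshold, against 0.853% of all probes tested in that direction, and the median difference of the 14 was 1.13 against −0.08 over all probes. In nuclei 11 probes of 8 genes passed, against 0.978% of all probes, with a median of 1.07 against 0.02. With replicate number, which stands for shared mice in EDL and soleus, as a block, 7 passed in nuclei against 1.06% of all probes; both Cpt1b probes, Cd36 and Hadha did not, with limma's adjusted p from 0.0508 to 0.0749. A higher level without overlap was found for 7.45% of all probes in cytoplasm and 21.8% in nuclei. The direction was the same for all 14 probes under each of the 28 other settings tried, although the number past the threshold was not. It was 5 in cytoplasm without scaling between arrays and 3 without EDL cytoplasm 2, and in nuclei it was 5 to 7 without any one of the EDL or soleus nuclear arrays. With the 3 nuclear arrays of each muscle merged into 1 sample, limma called 0 of the 14 in either fraction, against 0.0902% of all probes in cytoplasm and 0 in nuclei, and at an unadjusted p under 0.05 there were 12 in cytoplasm and 6 in nuclei. In these pools, fewer fibers of a type and less RNA per fiber cannot be told apart.

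**Figure D2:**
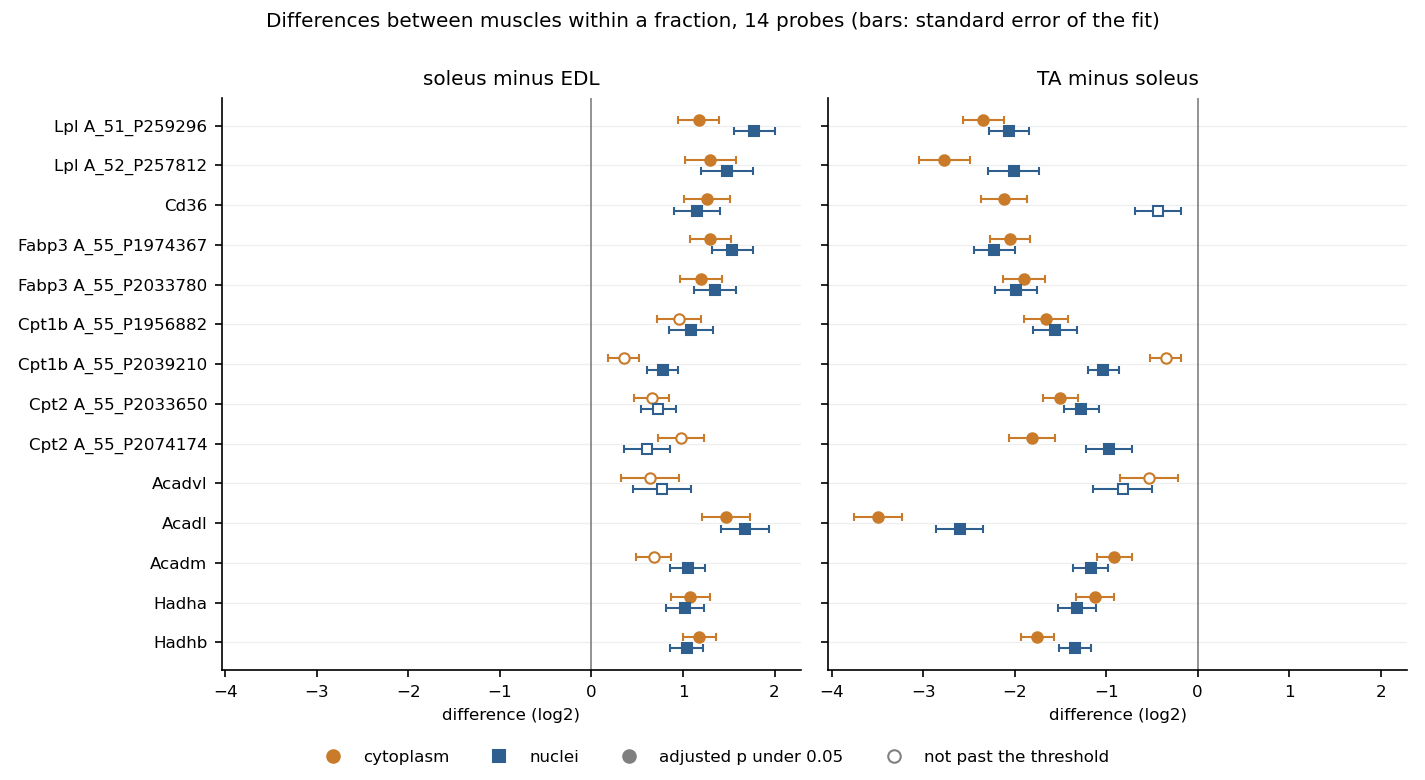
Difference between muscles (log2, horizontal axis) for each of the 14 probes, with soleus minus EDL on the left and TA minus soleus on the right. Circles are cytoplasm, squares are nuclei, bars are the standard error of the fit, and filled marks have an adjusted p under 0.05. All marks on the left are above 0 and all on the right are below it.

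Among the genes of uptake, Lpl read 10.35, 9.99 and 10.19 in EDL cytoplasm and 11.36, 11.30 and 11.39 in soleus cytoplasm with its brighter probe. In nuclei this probe read 9.94, 10.03 and 10.22 in EDL and 11.85, 11.77 and 11.90 in soleus. Every soleus array was above every EDL array in each fraction. The difference was 1.17 ± 0.22 in cytoplasm (limma, adjusted p = 0.0139) and 1.78 ± 0.22 in nuclei (adjusted p = 0.000368), a 3.42-fold difference and the largest of the 14 in nuclei. The other Lpl probe gave 1.30 ± 0.28 and 1.48 ± 0.28. Cd36 read 8.24, 7.91 and 7.96 in EDL cytoplasm and 9.52, 9.02 and 9.34 in soleus cytoplasm, a difference of 1.26 ± 0.25 (limma, adjusted p = 0.0177). Its nuclear levels of 7.72, 7.62 and 7.84 in EDL and 8.90, 8.86 and 8.88 in soleus differed by 1.15 ± 0.25 (adjusted p = 0.0254). Fabp3, whose probes read between 12.35 and 12.89 in EDL cytoplasm, read 13.73 to 14.13 in soleus cytoplasm, and both of its probes passed the threshold in both fractions, with differences of 1.30 ± 0.22 and 1.54 ± 0.22 for the probe A_55_P1974367. Markers of cell types that also use Lpl or Cd36 were measured beside these differences. Between soleus and EDL limma called 0 of 10 endothelial genes and 0 of the 5 or 6 adipocyte genes tested in either fraction, where few of all probes were called, as given above, so these counts say little and the part of these cells was not tested. The lists for macrophages and connective tissue also had 0 calls. The endothelial medians were 0.23 in cytoplasm and −0.17 in nuclei.

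The carnitine shuttle was less uniform between probes. Cpt1b, the muscle form of the transferase on the outer mitochondrial membrane, read 11.11, 10.51 and 11.47 in EDL cytoplasm and 11.81, 12.17 and 11.98 in soleus cytoplasm with its brighter probe, a difference of 0.96 ± 0.24 that did not pass the threshold (limma, adjusted p = 0.0688). In nuclei the same probe read 11.39, 11.49 and 11.38 against 12.56, 12.52 and 12.45, a difference of 1.09 ± 0.24 (adjusted p = 0.0336). The second Cpt1b probe gave 0.35 ± 0.17 in cytoplasm (adjusted p = 0.363) and 0.78 ± 0.17 in nuclei (adjusted p = 0.0285). Both Cpt1b probes also match a longer transcript that reads through from the neighbouring gene, so their signal cannot be assigned to Cpt1b alone. For Cpt2, the transferase on the inner membrane, neither probe passed in either fraction: the differences were 0.66 and 0.98 in cytoplasm and 0.73 and 0.61 in nuclei, with adjusted p from 0.0703 to 0.398.

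Of the 3 acyl-CoA dehydrogenases, Acadl differed most. It read 7.38, 7.00 and 6.99 in EDL cytoplasm and 8.85, 8.54 and 8.38 in soleus cytoplasm, a difference of 1.47 ± 0.26 (limma, adjusted p = 0.00908), the largest of the 14 in that fraction. In nuclei it read 7.78, 7.77 and 7.82 against 9.56, 9.46 and 9.41, a difference of 1.68 ± 0.26 (adjusted p = 0.00234). Acadm, with 10.18, 10.40 and 10.52 in EDL nuclei and 11.32, 11.44 and 11.49 in soleus nuclei, passed in nuclei (1.05 ± 0.19, adjusted p = 0.00884), while its cytoplasmic difference of 0.68 ± 0.19 did not (adjusted p = 0.106). Acadvl passed in neither fraction, with 0.64 ± 0.32 in cytoplasm and 0.77 ± 0.32 in nuclei, and its 95% intervals reached from −0.04 to 1.32 and from 0.09 to 1.45. Acadvl also had the largest standard error of the 14 probes.

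The subunits of the trifunctional protein differed between soleus and EDL by similar amounts. Hadha read 8.69, 7.74 and 8.05 in EDL cytoplasm and 9.18, 9.22 and 9.31 in soleus cytoplasm, and Hadhb read 10.20, 10.04 and 10.16 against 11.10, 11.37 and 11.46. The differences were 1.08 ± 0.21 for Hadha and 1.18 ± 0.18 for Hadhb in cytoplasm, and 1.02 ± 0.21 and 1.04 ± 0.18 in nuclei, and limma's adjusted p was between 0.00251 and 0.0236 in these 4 tests. With replicate number as a block, limma did not call Hadha in cytoplasm (adjusted p = 0.0539) or in nuclei (adjusted p = 0.0617). Hadhb still passed in both (adjusted p = 0.0132 and 0.0196). The genes lie head to head on chromosome 5, with 272 bases between their starts in RefSeq (GRCm38.p6). The stretch upstream of both starts, chr5:30155003-30155230 (228 bases, 57.0% G or C), is shown because both genes are read away from it. It is written 5′ to 3′ on the plus strand, which is the strand of Hadhb, and capitals mark the letters GGGCGG, found once.

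Hadha and Hadhb: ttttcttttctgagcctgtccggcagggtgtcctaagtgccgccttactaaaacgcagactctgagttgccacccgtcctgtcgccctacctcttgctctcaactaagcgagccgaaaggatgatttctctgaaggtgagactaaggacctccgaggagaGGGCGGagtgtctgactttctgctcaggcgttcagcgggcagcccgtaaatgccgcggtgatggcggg

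RefSeq promoter windows around a gene's start were found for 8 of the 10 genes, not for Lpl and Cpt1b. GGGCGG was present on either strand in 5 of these 8 (Acadl, Cpt2, Cd36, Hadha and Hadhb) and in 35.7% of all 32851 windows. Hadha and Hadhb lie head to head, so the GGGCGG in the stretch above may be counted for both. AGGTCA, the half-site bound by many nuclear receptors, was present in 3 of 8 (Acadm, Cd36 and Acadvl) and in 16.3% of all windows, and its direct repeat with 1 base between the copies was in 0 of 8 and 0.0396% of all windows. CCAAT was found in Cd36 alone among the 8, and in 37.4% of all windows. These are matches of letters in a short window and say nothing about binding.

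TA, the other fast muscle, had the lowest levels of most of these genes. All 14 probes were lower in TA than in soleus in both fractions, and 12 passed the threshold in each, against 12.8% of all probes in cytoplasm and 11.9% in nuclei; the median differences were −1.78 and −1.33, with 0.20 and −0.10 over all probes. The nuclear arrays of TA lay on another slide than those of soleus, so muscle and slide cannot be told apart there. Acadl differed most: it read 5.03, 4.46 and 5.80 in TA cytoplasm, with a difference of −3.49 ± 0.26 from soleus (limma, adjusted p = 8.97e-07, 11.3-fold lower) and of −2.03 ± 0.26 from EDL (adjusted p = 0.000609). Acadl was well above background on only 2 of these 3 arrays, which limits the size of the fold. Its TA nuclear levels of 6.78, 6.84 and 7.01 differed by −2.60 ± 0.26 from soleus and by −0.92 ± 0.26 from EDL (adjusted p = 0.0267). The brighter Lpl probe read 8.47, 9.02 and 9.54 in TA cytoplasm, below every soleus and EDL array, and 9.80, 9.90 and 9.64 in TA nuclei, below every soleus array. The probes that did not pass against soleus were Acadvl in both fractions (−0.53 and −0.82), the second Cpt1b probe in cytoplasm (−0.35) and Cd36 in nuclei (−0.43). In Acadvl the TA cytoplasm arrays disagreed, with 9.79 on the array that lay on the slide of EDL and soleus, and 11.41 and 11.34 on the others; without the first, the difference from soleus in cytoplasm was 0.00.

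Against EDL, 8 probes of 6 genes (Lpl, Cd36, Fabp3, Cpt2, Acadl and Hadhb) were called lower in TA cytoplasm, against 7.33% of all probes, and 2 (Acadl and 1 Fabp3 probe) were called lower in TA nuclei, against 9.81%. Levels of Acadm in TA cytoplasm (9.87, 10.11 and 10.40) overlapped those of EDL (10.19, 10.41 and 10.46), with a difference of −0.23 ± 0.19 and an interval from −0.64 to 0.19. Hadha and Acadvl also stayed within 0.12 of EDL in cytoplasm (−0.04 ± 0.21 and 0.12 ± 0.32). With slide as a block, which rests the comparison on TA cytoplasm 1 and the arrays that link the slides, 4 probes were called (both Lpl probes, Acadl and the brighter Cpt2 probe), and Acadvl turned to −0.94. The count in TA cytoplasm against EDL also moved when 1 array was left out, to 3 without TA cytoplasm 2, to 4 without EDL cytoplasm 1 or 3, to 5 without EDL nuclei 1 or 2, TA nuclei 1 or any one of the soleus nuclear arrays, and to 9 without TA cytoplasm 1, where Acadvl was also called higher in TA (0.64 ± 0.18). In nuclei TA and EDL lay on different slides, so muscle and slide cannot be told apart. Without a block, the order in cytoplasm was soleus, EDL, TA for Lpl, Cd36, Acadl and Hadhb, with each step past the threshold. With slide as a block, limma did not call Cd36 (−0.94 ± 0.22, adjusted p = 0.0684) or Hadhb (−0.71 ± 0.21, adjusted p = 0.128) between TA and EDL. For Acadm, Hadha and Acadvl in cytoplasm, EDL and TA did not differ beyond their spread without a block. The brighter Cpt1b probe differed by −0.70 ± 0.24 and missed the threshold (adjusted p = 0.0722), with an interval from −1.22 to −0.18. Markers of satellite cells, the stem cells on the fiber surface, also differed in TA. Cdh15 was above EDL by 3.67 ± 0.96 in cytoplasm and by 5.59 ± 0.96 in nuclei (limma, adjusted p = 0.0235 and 0.00205). Of the list's 4 genes 2 could be tested there, and limma called Cdh15 alone in cytoplasm and 2 genes in nuclei. Calcr was not well above background on any array, and Pax7 on no EDL array. Summed over the 4 genes this list read 6.54 to 6.82 in EDL cytoplasm, 6.80 to 12.54 in TA cytoplasm, 6.47 to 6.80 in EDL nuclei and 11.89 to 12.21 in TA nuclei. Of the 10 endothelial genes, 8 were called lower in TA cytoplasm than in soleus cytoplasm and 3 than in EDL cytoplasm, with medians of −0.94 and −0.66. The part of either cell type in the TA differences was not tested.

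Between fractions most probes were higher in nuclei. In EDL 5 probes were called higher and 0 lower, against 20.0% and 26.5% of all probes in these directions, and the median of the 14 was 0.39 against −0.05 over all probes. Soleus had 5 higher and 0 lower (18.7% and 21.7% of all probes; median 0.52 against −0.01), and TA had 8 higher and 1 lower (19.2% and 33.5%; median 0.66 against −0.22). Scaled to the 75th percentile, both Fabp3 probes turned in soleus, 1 of them called as higher otherwise, to −0.06 and −0.23. At an unadjusted p under 0.05, 5 of the 14 probes differed between fractions in EDL, 10 in soleus and 11 in TA. The shares called higher in EDL and soleus, 5 of 14, thus stood beside about 1 in 5 of all probes. A single array changed them. Without EDL cytoplasm 2, EDL nuclei 2 or EDL nuclei 3 only 1 probe was called in EDL, without EDL cytoplasm 3 it was 2 and without EDL nuclei 1 it was 3. In soleus the number was 2 without soleus cytoplasm 3, 3 without any one nuclear array, 9 without TA cytoplasm 1 and 8 without TA cytoplasm 3. The scaling between arrays moved all probes together, with a median of all probes of 0.35 in EDL, 0.96 in soleus and −0.16 in TA without scaling; the medians of the 14 then were 1.03, 1.53 and 1.03. With each muscle's nuclear arrays merged into 1 sample, 0 of the 14 were called between fractions by limma, against 7.23%, 3.23% and 10.0% of all probes in either direction, and 1, 0 and 4 had an unadjusted p under 0.05. Other cell types moved between fractions too, with 5, 5 and 6 of 6 connective tissue genes called higher in nuclei of EDL, soleus and TA, and 2, 2 and 4 adipocyte genes called lower; their part was not tested.

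**Figure D3:**
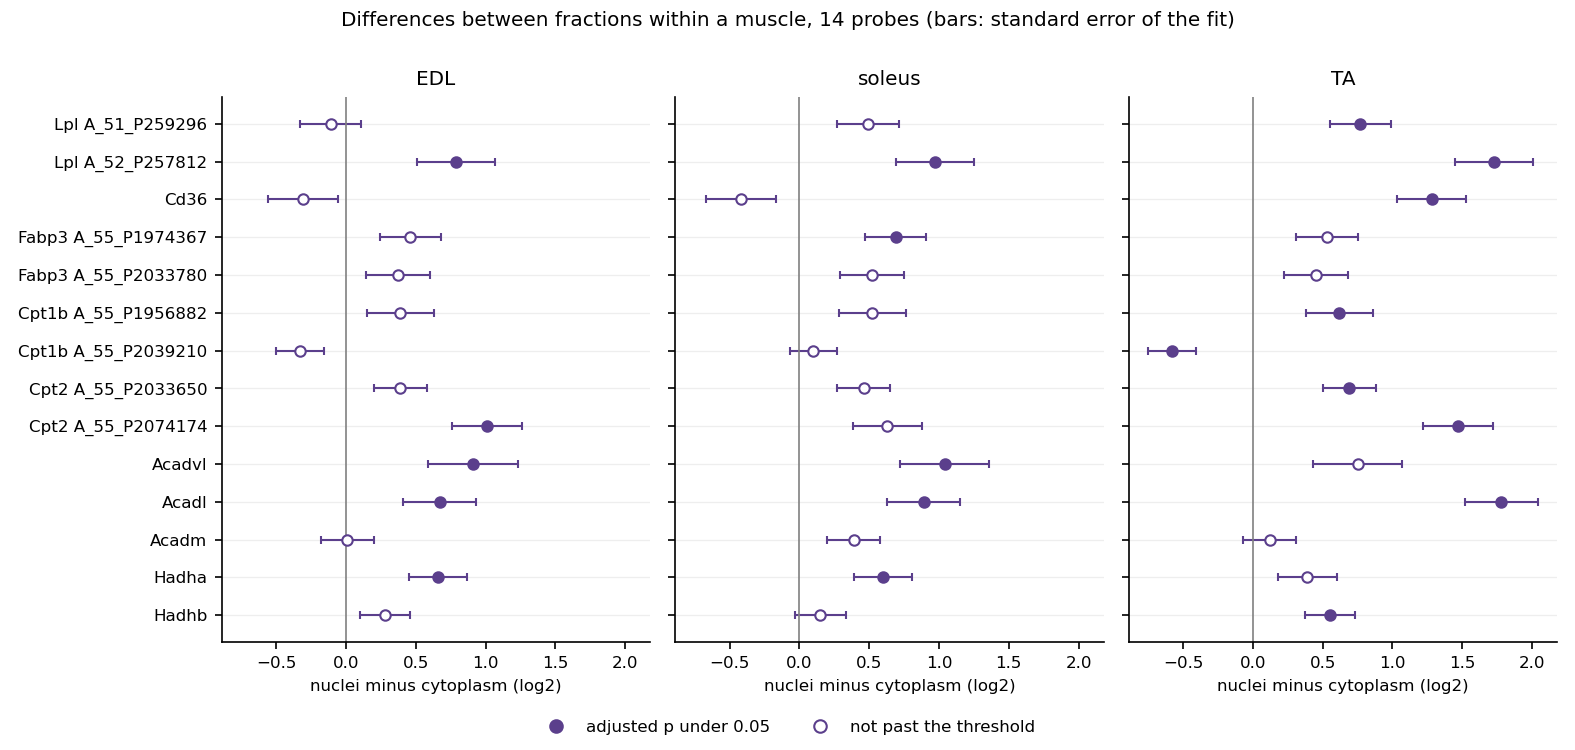
Nuclei minus cytoplasm (log2, horizontal axis) for each of the 14 probes in EDL, soleus and TA. Bars are the standard error of the fit, and filled marks have an adjusted p under 0.05. Most marks lie above 0, Cd36 lies below 0 in EDL and soleus (above it there without scaling between arrays) and above it in TA, and the probes of Lpl, Cpt1b and Cpt2 lie apart from each other.

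Acadl was the gene called higher in nuclei of all 3 muscles. Its differences were 0.67 ± 0.26 in EDL (limma, adjusted p = 0.0453), 0.89 ± 0.26 in soleus (adjusted p = 0.0136) and 1.78 ± 0.26 in TA (adjusted p = 6.43e-05), and in each muscle its 3 nuclear arrays lay above its 3 cytoplasmic arrays. The same held for the Lpl probe A_52_P257812, with 0.79 ± 0.28, 0.97 ± 0.28 and 1.73 ± 0.28. Acadvl was called in EDL (11.50, 11.66 and 11.76 in nuclei against 11.07, 10.42 and 10.69) and in soleus (12.41, 12.36 and 12.46 against 11.35, 11.30 and 11.47), with differences of 0.91 ± 0.32 and 1.04 ± 0.32, and not in TA (0.75 ± 0.32, adjusted p = 0.0602). Hadha was called in EDL (0.66 ± 0.21) and soleus (0.60 ± 0.21), and Hadhb in TA (0.55 ± 0.18). The Cpt2 probe A_55_P2074174 was called in EDL (1.01 ± 0.25) and TA (1.47 ± 0.25), and the brighter Cpt2 probe in TA (0.69 ± 0.19). Neither Cpt2 probe was called in soleus, and background limits A_55_P2074174 in TA cytoplasm. For Acadm, the medium-chain enzyme, no call was made: its differences were 0.01 ± 0.19 in EDL, 0.39 ± 0.19 in soleus and 0.12 ± 0.19 in TA, with 95% intervals from −0.40 to 0.42, from −0.02 to 0.80 and from −0.29 to 0.53. Of all 14 probes, the F test of whether the fraction difference depends on muscle called Cd36 alone, so the other differences between muscles in this paragraph were not shown to differ.

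Cd36 was the gene whose fraction difference depended on muscle by the F test. Its cytoplasmic levels of 8.24, 7.91 and 7.96 in EDL and 9.52, 9.02 and 9.34 in soleus lay above the nuclear levels of 7.72, 7.62 and 7.84 and of 8.90, 8.86 and 8.88. In TA the cytoplasm read 7.09, 6.61 and 7.81 and the nuclei read 8.58, 8.49 and 8.28. The fractions did not overlap in any muscle, and TA ran opposite to the others, except that without scaling between arrays EDL and soleus turned to 0.32 and 0.83. Nuclei minus cytoplasm was −0.31 ± 0.25 in EDL (limma, adjusted p = 0.314), −0.42 ± 0.25 in soleus (adjusted p = 0.189) and 1.28 ± 0.25 in TA (adjusted p = 0.000543). The F test gave an adjusted p of 0.0301, against 1.57% of all probes called. The TA difference exceeded that of soleus by 1.69 ± 0.35 (adjusted p = 0.0186; 3.33% of all probes called) and that of EDL by 1.59 ± 0.35 (adjusted p = 0.0682; 0.339% called). Without scaling between arrays the TA difference exceeded that of soleus by 0.71 (adjusted p = 0.0893), and the adjusted p was 0.0522, 0.0520 and 0.0547 without soleus nuclei 1, soleus nuclei 3 or TA nuclei 1. The F test did not pass without any one of the 9 nuclear arrays or without TA cytoplasm 2 (adjusted p from 0.0534 to 0.100), nor with replicate number as a block (0.0649), nor with each muscle's nuclear arrays merged (1.00). With slide as a block the nuclei minus cytoplasm difference in TA was 1.84 ± 0.22, and with scan day as a block it was 1.24 ± 0.27. These blocks cover TA alone and do not bear on the F test. In EDL and soleus the fractions lay on different slides, so for Cd36 the F test cannot tell muscle and slide apart. Endothelial genes, which mark the capillary cells that also carry Cd36, moved with it in TA: 10 of 10 were called higher in TA nuclei than in TA cytoplasm (median 1.74), against 7 in EDL (median 0.82) and 4 in soleus (median 0.62). Their summed level ran from 11.67 to 12.50 in TA cytoplasm and from 13.72 to 13.95 in TA nuclei, from 12.58 to 12.88 and 13.51 to 13.55 in EDL, and from 12.56 to 13.42 and 13.38 to 13.52 in soleus. All 10 genes were well above background in every group. Their part in the Cd36 result was not tested. Gpihbp1, the endothelial anchor of lipoprotein lipase, was lower in nuclei than in cytoplasm in soleus (−0.83 ± 0.21, adjusted p = 0.00557), and its values were −0.34 ± 0.21 in EDL and 0.36 ± 0.21 in TA.

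For 4 genes with 2 probes, the probes of a gene can be set against each other on the same array. The stretches below show why the pairs differ as reagents: capitals mark the letters AATAAA, the usual signal for cutting and polyadenylation, which sits near the end of a transcript when it is used. Both Fabp3 probes cover the same 30 bases shown and share 51 of 60. In Cpt1b and in Cpt2 the brighter probe holds AATAAA and the other does not. In Lpl the brighter probe starts at base 3484 of its RefSeq transcript and the other, which holds AATAAA, at base 1340. For this second Lpl probe all 60 bases are given, and for the others shown 30.

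Lpl A_51_P259296, chr8:71430267-71430326 (plus strand), probe bases 1 to 30: gaacaccaacccacatgcaaaaccccacaa
Lpl A_52_P257812, chr8:71425050-71425109 (plus strand): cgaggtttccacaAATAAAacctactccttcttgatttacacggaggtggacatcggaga
Cpt2 A_55_P2033650, chr4:107576591-107576650 (minus strand), probe bases 31 to 60: tgtttaaatagaAATAAAcccagtgttgct
Cpt1b A_55_P1956882, chr15:89246836-89246895 (minus strand), probe bases 25 to 54: atgtgcacttggAATAAAttcttactttag
Cpt1b A_55_P2039210, chr15:89247106-89247165 (minus strand), probe bases 1 to 30: tgctcctctagggcccccgctggaggtggg
Fabp3 A_55_P1974367, chr4:129992643-129992702 (plus strand), probe bases 29 to 58: tgctccaaggtcAATAAAgcagaaccaagg
Fabp3 A_55_P2033780, chr4:129992652-129992711 (plus strand), probe bases 20 to 49: tgctccaaggtcAATAAAgcagaaccaagg

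Positions are those of the array annotation on mm9, and the exon or untranslated region behind each was not looked up, since no annotation of that build was used here. The single probes of the other genes lay at chr5:17288600-17288659 for Cd36, chr11:69823722-69823781 for Acadvl, chr1:66877673-66877732 for Acadl and chr3:153585670-153585729 for Acadm. Those of the trifunctional protein lay at chr5:30446215-30446274 for Hadha and chr5:30510925-30510984 for Hadhb. The brighter minus the other Lpl probe was 2.95, 2.93 and 2.71 on the EDL cytoplasm arrays and 1.91, 1.90 and 2.07 on the EDL nuclear arrays. It was 2.76, 2.71 and 2.73 against 2.22, 2.29 and 2.25 in soleus, and 3.26, 3.43 and 2.80 against 2.22, 2.33 and 2.05 in TA. In each muscle every nuclear array lay below every cytoplasmic array, so the nuclei minus cytoplasm difference was larger for the probe at base 1340 than for the probe farther along the transcript. Averaged over the muscles the difference between the probes' fraction differences was −0.78. A 2-sided exact permutation test that exchanged fractions within each muscle (8000 arrangements) gave p = 0.00025, the smallest it can give. Cpt2 ran the same way, with a difference of −0.52 and an exact p of 0.0102, and with overlap between the fractions in soleus alone. Cpt1b ran the other way. Its probe that holds AATAAA exceeded the other by 1.98, 1.60 and 2.09 in EDL cytoplasm and 2.57, 2.69 and 2.57 in EDL nuclei. In soleus the values were 2.34, 2.78 and 2.39 against 3.05, 2.94 and 2.79, and in TA they were 1.27, 0.75 and 1.55 against 2.45, 2.30 and 2.44. The mean shift was 0.78, again without overlap in any muscle (exact permutation test, p = 0.00025, the smallest possible). In TA the Cpt1b probes were called in opposite directions between fractions, with 0.62 ± 0.24 and −0.58 ± 0.17 (limma, adjusted p = 0.0431 and 0.00918), although they start only 270 bases apart. The overlapping Fabp3 probes differed by 0.11 in this measure (exact permutation test, p = 0.00525). These 4 pairs are all that the 10 genes have, and the p-values of the exact tests were not adjusted for their number. The exchange of fractions also ignored that EDL and soleus pools of one number share mice across fractions and muscles. These exact p-values therefore treat arrays that share mice as independent. Nuclear and cytoplasmic arrays of EDL and soleus lay on different slides, so in these muscles the shift cannot be told apart from one between slides. TA cytoplasm 2 shared the slide of the TA nuclei and lay outside their range for Lpl and Cpt1b. That is 1 array, and the part of slide in the shift was not tested.

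**Figure D4:**
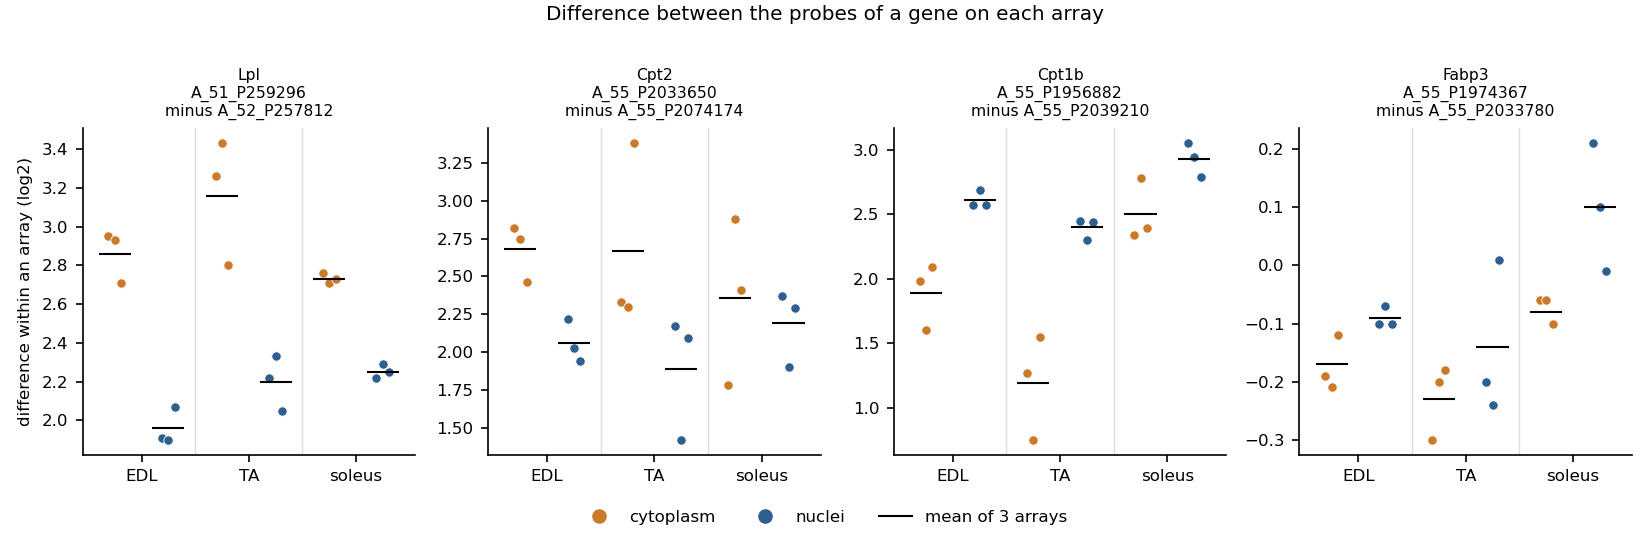
Difference in log2 intensity between the 2 probes of Lpl, Cpt2, Cpt1b and Fabp3 on each array, by muscle and fraction, with lines at means of 3 arrays and a separate axis per gene. The offset of a panel reflects the probes and cannot be read as a level. Nuclear points lie lower for Lpl and higher for Cpt1b in every muscle, and the Fabp3 axis spans little more than 0.5. In EDL and soleus the shift between fractions cannot be told apart from one between slides.

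Around these 10 genes, 53 other genes of fatty acid use were followed by their brightest probe, 52 of them with enough values in both comparisons of soleus and EDL. In cytoplasm 5 were called higher in soleus and 0 lower, with a median of 0.42. Of all probes 0.853% were called higher there, with a median of −0.08. In nuclei 6 were called higher and 0 lower, with a median of 0.41, against 0.978% of all probes called higher and a median of 0.02. Both fractions shared Plin5, which coats the lipid droplets next to mitochondria (1.37 ± 0.21 and 1.69 ± 0.21), Acsl1, the main enzyme that activates fatty acids in muscle (1.26 ± 0.25 and 1.62 ± 0.25), and Eci1, an isomerase for unsaturated chains (0.93 ± 0.16 and 0.84 ± 0.16). Plin5 read 8.02, 7.45 and 8.24 in EDL cytoplasm and 9.21, 9.08 and 9.52 in soleus cytoplasm. Of the enzymes that act beside the 10 genes in the matrix, Acaa2 (thiolase) was called in nuclei (1.08 ± 0.25, adjusted p = 0.0426) and not in cytoplasm (0.99 ± 0.25, adjusted p = 0.0677). Hadh and Echs1 gave 0.63 ± 0.45 and 0.88 ± 0.48 in cytoplasm without passing. The 10 genes of uptake and binding other than Lpl, Cd36 and Fabp3 had 0 calls between soleus and EDL in either fraction by limma, with medians of 0.18 and 0.06.

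**Figure D5:**
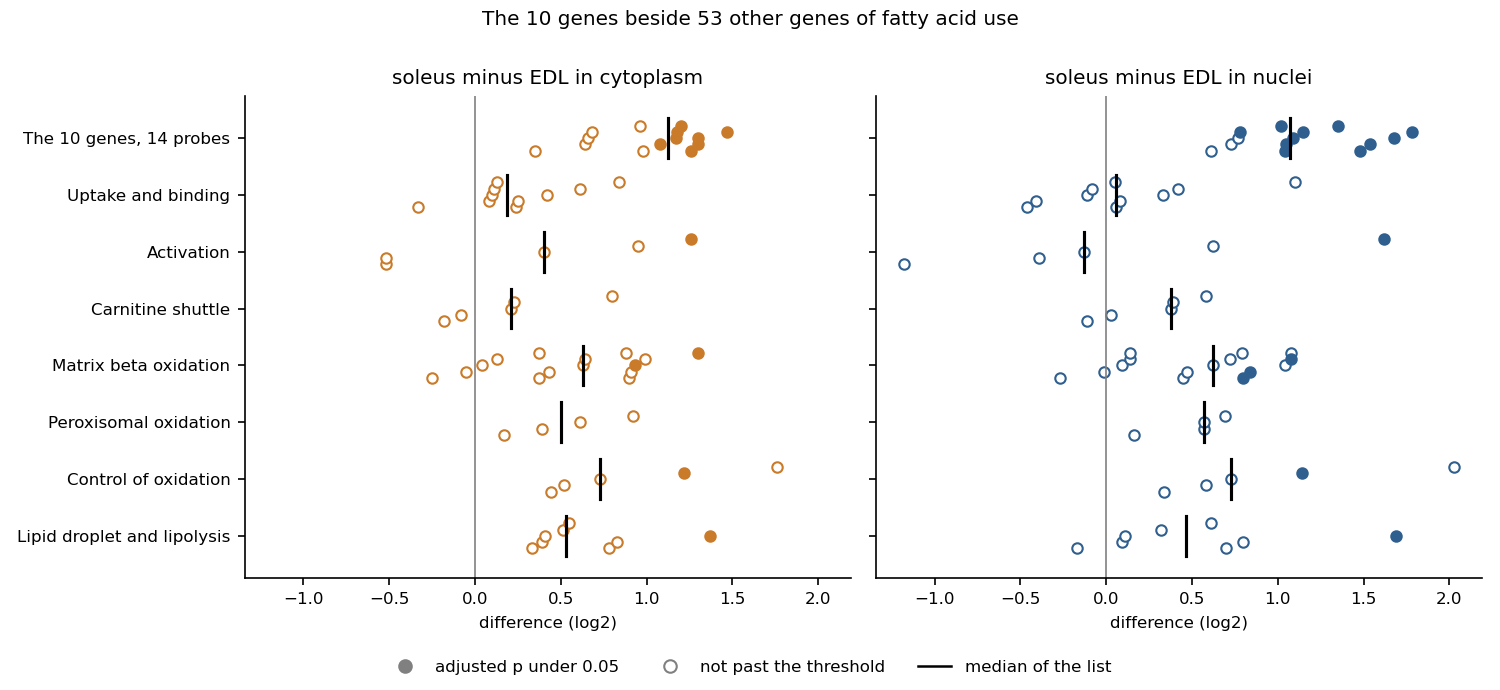
Soleus minus EDL (log2, horizontal axis) in cytoplasm and in nuclei for the 14 probes and for the brightest probe of 52 other genes of fatty acid use that could be tested, by step. Filled points have an adjusted p under 0.05 and black lines are medians. The 14 probes have medians of 1.13 and 1.07, and the calls in the other lists all lie above 0.

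TA against soleus gave 28 of these genes lower and 3 higher in cytoplasm (median −0.76), and 21 lower and 2 higher in nuclei (median −0.46). Of all probes 12.8% and 11.9% were called lower, and 28.6% and 19.6% were called in either direction, with medians of 0.20 and −0.10. The few calls higher are given as values and are not read as a result about these genes. Pdk4, the kinase that holds back glucose oxidation, differed by −3.36 ± 0.84 and −4.07 ± 0.84, Plin5 by −2.82 ± 0.21 and −2.52 ± 0.21, and Acsl1 by −2.45 ± 0.25 and −1.93 ± 0.25. Slc25a20, the carrier that exchanges acylcarnitine for carnitine between the transferases, differed by −2.21 ± 0.40 in cytoplasm and −1.55 ± 0.40 in nuclei. Called higher in TA cytoplasm were Cpt1a, the liver form of the transferase (2.11 ± 0.53), Acads, the short-chain dehydrogenase (1.77 ± 0.44), and the fatty acid transporter Slc27a4 (0.57 ± 0.20). Cpt1a and Acads were thus higher than in soleus cytoplasm where the brighter Cpt1b probe and Acadl were lower. The second Cpt1b probe was not called there (−0.35 ± 0.17). Cpt1a and Acads were also called above EDL in TA, by 2.32 ± 0.53 and 2.68 ± 0.50 in cytoplasm and by 1.84 ± 0.53 and 1.71 ± 0.44 in nuclei. Against EDL, limma called neither Cpt1b probe in either fraction. In nuclei TA lay on another slide than soleus and EDL, so muscle and slide cannot be told apart there.

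Between fractions, 19 of the 52 genes tested were called higher in EDL nuclei and 3 lower, 16 of 53 higher and 2 lower in soleus nuclei, and 25 of 52 higher and 4 lower in TA nuclei, with medians of 0.46, 0.50 and 0.71. Of all probes 20.0%, 18.7% and 19.2% were called higher and 26.5%, 21.7% and 33.5% lower. Angptl4, the secreted inhibitor of lipoprotein lipase, was called lower in nuclei of all 3 muscles (−0.82 ± 0.23 in EDL, −0.62 ± 0.23 in soleus and −0.75 ± 0.23 in TA). Among those with the largest differences upward, Hsd17b4 of the peroxisome reached 2.11 ± 0.53, 1.75 ± 0.53 and 1.83 ± 0.53, and Acsl3 reached 1.37 ± 0.44 in EDL and 2.48 ± 0.44 in TA. The F test of whether the fraction difference depends on muscle called 0 of 52, against 1.57% of all probes.

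Over the 18 arrays the 10 genes had similar profiles, which follows in part from the differences between muscles given above. Each gene's brightest probe was correlated over the 18 arrays with the mean of the other 9: Hadhb was closest (r = 0.976), then Lpl (0.970), and Cd36 (0.804) and Acadvl (0.662) were farthest. Of 12573 genes, those closest to the mean of the 10 were Actn2, a protein of the Z disc (r = 0.985), Acss1, which activates acetate in mitochondria (0.984), Atp1b1, a subunit of the sodium pump (0.983), Fhl1 (0.979) and Mavs (0.977). The arrays share muscles, slides and mice, so these correlations describe the 18 arrays and carry no test.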

How the data were processed

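Nuclear and cytoplasmic RNA of pooled myofibers was measured on Agilent one-color arrays in 18 samples. Per the file headers, the deposited scanner files give a Cy3 intensity for each spot, from which Feature Extraction (version 10.7.3.1) had subtracted background and removed spatial trends, with no scaling across arrays. A matrix of normalized intensity that the authors also deposited held a value for 0 of the 14 probes and gave nothing to test.

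Each intensity became a log2 value. A spot counted as missing when it lacked Agilent's positive-and-significant flag (78.9% to 89.3% of spots per array carried it) or was an outlier, and the 3671 control spots were dropped. The 18 arrays were then quantile-normalized, and spots with the same probe name averaged (55681 names). The study's methods name Significance Analysis of Microarrays; here limma 3.58.1 (R 4.3.3) fitted 6 group means, with 12 residual degrees of freedom for complete probes and 3.27 prior degrees of freedom. Probes needed a value on 2 or more arrays of every group compared, which left 40541 to 46398 per comparison for the Benjamini-Hochberg adjustment, with 2-sided tests and a threshold of 0.05. The number of arrays, 3 a group, limits precision, and since some samples share mice, p-values measure only the spread between these samples.

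The 10 genes, the 53 other genes and the marker lists were chosen with earlier results of these data known. Genes outside the 10 are given by their brightest probe and named when among the 3 largest called differences in a direction, when they share a step with a member, or as a marker; the 5 genes closest in profile were named by correlation. By RefSeq accession (GRCm38.p6) all 14 probes carried their current symbol, and 2 of the 53 genes were found only that way.

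EDL and soleus samples of one number come from the same mice per the labels, so the numbers pair them; deviations from group means correlated at -0.111 to 0.101 in 18 pairs over 35528 probes. The fit was tested on simulated data. Alternatives were other scalings, background corrections and filters, blocks by replicate number, slide or scan day, array weights, merged nuclear arrays, and leaving out each array. The R package data.table (version 1.17.8), numpy 2.4.6, pandas 2.3.3, matplotlib 3.10.9 and Python 3.11.15 were also used.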

Additional observations from a re-analysis of the deposited data

Results flagged for a closer look

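For Cd36 the nuclei minus cytoplasm difference was found to depend on muscle, with an adjusted p of 0.0301 in limma's F test, and it was larger in TA than in soleus by 1.69 on the log2 scale, or by 0.71 without scaling between arrays (adjusted p = 0.0893). Each of the 3 nuclear arrays was above each of the 3 cytoplasmic arrays in TA, and below each of them in EDL and soleus, except that without scaling between arrays the differences in EDL and soleus were 0.32 and 0.83. In EDL and soleus the fractions lay on different slides, so muscle and slide cannot be told apart here. The adjusted p of the F test ranged from 0.000365 with array quality weights to 1.00 with each muscle's nuclear arrays merged into 1 sample.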

How the results depend on the processing

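All 14 probes were higher in soleus than in EDL under each of 28 alternatives in both fractions, and all were lower in TA than in soleus under each alternative, except Acadvl in cytoplasm at 0.00 without TA cytoplasm 1. Numbers of probes called were less steady. With replicate number as a block, 7 were called for soleus against EDL in nuclei, 5 for TA against EDL in cytoplasm, 1 in nuclei and 0 by the F test (4 at an unadjusted p under 0.05). That block follows shared mice in EDL and soleus, and only in part in TA. Scaling to the 75th percentile gave 3 in the soleus fraction comparison, where 45.5% of all probes were called. Without scaling, 11 were called between fractions in EDL and 14 in soleus, 5 for soleus against EDL in cytoplasm, 7 for TA against EDL in nuclei and 3 by the F test, where 51.0%, 62.1%, 1.45%, 29.5% and 36.4% of all probes were called. Normexp correction gave 8 between fractions in soleus and 5 for TA against EDL in nuclei (39.9% and 21.1% of all probes). Requiring signal well above background gave 11 and 5 in these comparisons (42.6% and 25.4% of all probes). No flag filter gave 0 for TA against EDL in nuclei (5 at an unadjusted p under 0.05), where 15% of all probes were called. Array weights gave 8 and 10 between fractions in EDL and soleus, 9 for TA against EDL in nuclei and 4 by the F test (56.9%, 51.2%, 51.1% and 15.6% of all probes), and slide as a block gave 4 for TA against EDL in cytoplasm. With merged nuclear arrays, 0 were called in each comparison but TA against soleus in cytoplasm, where 10 were; since 0 of all probes were called in nuclei for soleus or TA against EDL or by the F test, a 0 there says nothing about these genes. The causes were not tested.

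Leaving out 1 array gave 1 to 6 calls between fractions in EDL, 2 to 9 in soleus and 8 to 11 in TA, 3 to 10 in cytoplasm and 5 to 13 in nuclei for soleus against EDL, 3 to 10 and 0 to 5 for TA against EDL, 12 to 13 and 11 to 13 for TA against soleus, and 0 to 4 by the F test. Single probes turned sign as follows. Between fractions, scaling to the 75th percentile turned Fabp3 in soleus to −0.06 and −0.23, and no scaling turned Lpl A_51_P259296 to 0.60, Cd36 to 0.32 and Cpt1b A_55_P2039210 to 0.35 in EDL, and Cd36 to 0.83 in soleus. Acadm was −0.01 in EDL with normexp or array weights and −0.07 to 0.11 without 1 array, and in TA −0.01 with scan day as a block and −0.01 to 0.26 without 1 array. For TA against EDL in cytoplasm, Hadha was 0.01 without scaling, 0.04 with array weights and −0.25 to 0.23 without 1 array, and Acadvl was −0.94 with slide as a block and −0.17 to 0.64 without 1 array. In nuclei Acadvl was 0.01 with the 75th percentile and −0.12 to 0.01 without 1 array. The deposited matrix gave no value for these probes and was not run. Background limits Acadl and Cpt2 A_55_P2074174 in TA cytoplasm.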

Other observations

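Among the 53 other genes of fatty acid use, Gpihbp1 came nearest to the pattern of Cd36, with an adjusted p of 0.0996 in the F test; its TA nuclear arrays read 10.05, 10.11 and 10.23, against 8.82, 8.85 and 8.99 in soleus nuclei (1.25 ± 0.21 higher in TA, limma, adjusted p = 0.0011), while the muscles differed by 0.06 ± 0.21 in cytoplasm. Fabp4, the fatty acid binding protein of adipocytes and capillaries, was called higher in TA nuclei than in TA cytoplasm (1.06 ± 0.22, adjusted p = 0.00106), and its values were 0.45 ± 0.22 in EDL and 0.12 ± 0.22 in soleus. These genes were singled out after their values were seen. The nuclear arrays of TA and soleus lay on different slides, so for Gpihbp1 in nuclei muscle and slide cannot be told apart.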
